A study of Mus musculus with 8 samples.

Results

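The 10 genes of the PDGF, KIT and CSF1 receptor system were followed across 8 mRNA sequencing libraries of cultured mouse vascular smooth muscle cells. They are the rows of the count table named Pdgfa, Pdgfb, Pdgfc, Pdgfd, Kitl and Csf1, which encode ligands, and Pdgfra, Pdgfrb, Kit and Csf1r, which encode their receptors. All 10 members were found among the 55353 rows, and all 10 passed the filter on low counts that left 13992 genes for testing. The cells came from the aorta, were thawed from frozen stocks and were lysed for RNA. They had 4 genotypes, which are called E12 WT, E12 KO, E47 WT and E47 KO after the E12 and E47 isoforms of the transcription factor E2A, an E protein encoded by Tcf3. Each genotype had 2 libraries from independent extractions. The labels give no age, sex, strain, passage or way of making the knockouts, and no treatment. Since nothing says that the 2 extractions of a genotype used different cultures or mice, p-values cover only the spread between these libraries, which may be technical, and a genotype may be 1 population of cells.

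The receptors encoded by Pdgfra, Pdgfrb, Kit and Csf1r are class III receptor tyrosine kinases. A dimeric ligand brings a pair of receptor chains together outside the cell, and their kinase domains then phosphorylate each other and recruit adaptors that start the RAS, phosphoinositide 3-kinase and phospholipase C gamma pathways. PDGF-B acting on PDGF receptor beta is a classical mitogen and attractant for smooth muscle cells and pericytes, PDGF receptor alpha is commonly used to mark fibroblasts and mesenchymal progenitors, KIT serves mast cells, melanocytes, germ cells and blood progenitors, and CSF1R serves macrophages.

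Depth and cell identity bear on every value below. Library totals ran from 13909230 to 27517374 counts. The E12 WT libraries, the base of every E12 change, differed from each other more than the other pairs did, with a chi-square per degree of freedom over genes of 13.1 against 4.45 to 4.82. Of the members' E12 calls, leaving out either of them ended that of Csf1r, and leaving out replicate 2 also ended that of Pdgfc. Levels are given as CPM, counts scaled to a common library total, for each library or as the mean of the 2 libraries of a genotype. The labelled cell type was checked with 12 smooth muscle markers. All passed the filter, but several were low in the E12 genotypes, where Tagln was at 1.71 and 1.04 CPM and Cnn1 at 7.34 and 2.31 CPM. Of the Tagln exon length, 67.9% overlaps genes on the opposite strand, and the libraries kept no strand, so its count is uncertain. Of the 12, 3 rose and 7 fell in E12 KO, and 2 rose and 10 fell in E47 KO. Acta2, smooth muscle actin, was at 1953 CPM in E12 WT, 1638 CPM in E12 KO, 3566 CPM in E47 WT and 2108 CPM in E47 KO, whereas Myh11, smooth muscle myosin, was at 7.44, 2.43, 98.2 and 6.92 CPM in the same order. Tcf3, the gene of both targeted isoforms, had 109 and 107 CPM in E12 WT, 145 and 143 in E12 KO, 94.5 and 93.7 in E47 WT, and 128 and 128 in E47 KO. These counts pool the isoforms and so do not check the genotype labels. One genotype stood apart in most endothelial markers. The sum of 10 such markers was 682 and 751 CPM in the E47 WT libraries and between 4.48 and 10.8 CPM in the other 6. All 9 of the endothelial markers that passed the filter were lower in E47 KO than in E47 WT, among them Pecam1, which was at 202 and 0.55 CPM. The list was not uniform. Kdr was at 4.004 CPM in E12 WT and 2.400 CPM in E47 WT, Tek was at 1.38 CPM in E47 WT, and Cldn5 had no count in any library. Any member that differs between E47 WT and another genotype therefore differs together with most of these markers, and their part in those results was not tested. In bulk RNA, fewer cells of a type and less RNA per cell cannot be told apart.

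Most members differed between knockout and wild type in both pairs of genotypes. In E12 KO against E12 WT, 5 rose and 4 fell (adjusted p under 0.05 in edgeR's quasi-likelihood test), where 46.4% of all tested genes passed the test, 21.9% higher and 24.5% lower. In E47 KO against E47 WT, 3 rose and 5 fell, against 55.2% of all genes, 27.7% higher and 27.5% lower. The median size of the members' log2 changes, sign removed, was 0.90 in E12 and 0.80 in E47, beside 0.31 and 0.35 over all tested genes. Kit and Kitl were higher and Pdgfa, Csf1 and Csf1r lower in both knockouts, and Pdgfc was slightly higher in both. Pdgfra was higher in E12 KO and lower in E47 KO. Kit passed the filter on low counts only through the knockouts and Csf1r only through the wild types, so both had to differ. The members were also chosen with earlier results of these data known. These counts and medians are therefore descriptions. The other 8 members passed in every genotype.

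**Figure D1:**
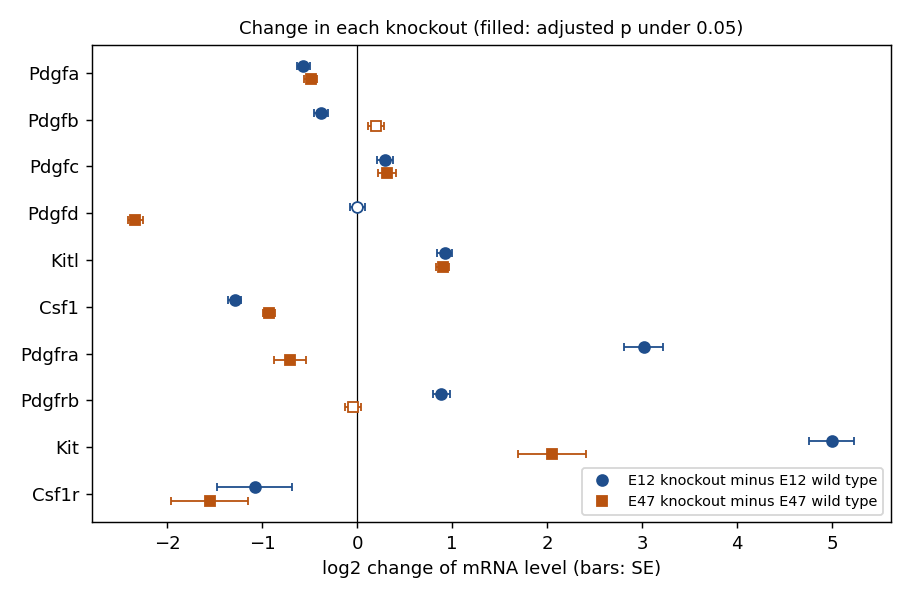
Log2 change of each member's mRNA in the E12 knockout (circles) and the E47 knockout (squares) against the matching wild type, with bars for the standard error (SE) and filled symbols for an adjusted p under 0.05. Kit has the largest change in E12 (4.99) and Pdgfd the largest in E47 (-2.33), and Pdgfra lies on opposite sides of 0.

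Kit encodes the receptor for stem cell factor. It had 13 and 8 counts in the E12 WT libraries, 461 and 405 in E12 KO, 9 and 13 in E47 WT, and 33 and 46 in E47 KO. In CPM these are 0.829 and 0.598, 22.3 and 24.3, 0.645 and 0.507, and 1.72 and 3.07. Every knockout library was above every wild-type library, and the E12 KO libraries were far above the E47 KO libraries. Kit passed the filter on low counts only through the knockouts, so this order and the tests of Kit are descriptions. In E12 KO it was higher by 4.99 on the log2 scale (SE 0.237, adjusted p = 3.3e-10). In E47 KO the rise was 2.05 (SE 0.356, adjusted p = 0.0002), and it stayed past the test in all 12 alternatives, at 1.62 to 2.46. The rise in E12 was the larger by 2.95 (SE 0.553, adjusted p = 0.00047). E12 KO exceeded E47 KO by 3.32 on the log2 scale (SE 0.181, adjusted p = 9.3e-10), while the wild types, which overlapped, differed by 0.37 (SE 0.486, adjusted p = 0.54). Even in E12 KO the gene was not abundant. Per kilobase of merged exon length it stood at 2.61 CPM, higher than 36.9% of tested genes, and in E47 WT at 0.0646 CPM per kb, higher than 2.22%.

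Markers of cell types known for KIT were mostly at or near 0 in the libraries. Of 10 mast cell markers, 2 passed the filter, and Tpsb2, Fcer1a and Mrgprb2 had no count in any library. The sum of the mast cell list was 2.76 to 4.10 CPM in E12 KO, 3.76 to 4.26 CPM in E12 WT, 9.49 to 10.2 CPM in E47 KO and 132 to 136 CPM in E47 WT. Gata2, which endothelial cells also express, made up 134 CPM of the E47 WT mean. The sum without Gata2 was 0.911 CPM in E12 WT, 0.711 in E12 KO, 0.423 in E47 WT and 2.91 in E47 KO. Mcpt4, a mast cell protease gene, moved with Kit in the E47 pair, rising from 0.312 to 2.84 CPM, and its part in the Kit result was not tested. Of 8 melanocyte markers 2 passed, and the list summed to 2.10 to 2.70 CPM in E12 KO and 3.96 to 7.72 CPM elsewhere. Of 4 markers of interstitial cells of Cajal, the KIT-positive pacemaker cells of the gut, Ano1 was at 362 CPM in E12 WT, 287 in E12 KO, 148 in E47 WT and 275 in E47 KO, and Thbs4 had no count in any library. Etv1, another of the 4, moved with Kit in the E12 pair, rising from 0 and 1 counts in E12 WT to 8 and 9 in E12 KO, and its part in the Kit result was not tested. In the E12 pair the mean sums of the mast cell and melanocyte lists were not higher in the knockout, whereas in the E47 pair the mast cell sum without Gata2 was.

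The start regions of Kit, of Kitl and of Pdgfra are shown because E proteins bind E-boxes, and because Kit and Pdgfra had the largest changes of the members in E12 KO while Kitl rose with its receptor in both knockouts. Each is the 250 bases before the RefSeq start site (GRCm38.p6), 5′ to 3′ on the gene's strand, which is the plus strand for all 3, with any E-box of the form CANNTG in capitals. The windows are chr5:75574737-75574986 for Kit, chr10:100015571-100015820 for Kitl and chr5:75152001-75152250 for Pdgfra.
Kit: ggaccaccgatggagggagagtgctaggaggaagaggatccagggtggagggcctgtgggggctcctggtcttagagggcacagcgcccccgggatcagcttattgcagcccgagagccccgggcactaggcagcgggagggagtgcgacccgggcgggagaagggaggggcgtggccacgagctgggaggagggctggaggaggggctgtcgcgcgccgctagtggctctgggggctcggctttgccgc
Kitl: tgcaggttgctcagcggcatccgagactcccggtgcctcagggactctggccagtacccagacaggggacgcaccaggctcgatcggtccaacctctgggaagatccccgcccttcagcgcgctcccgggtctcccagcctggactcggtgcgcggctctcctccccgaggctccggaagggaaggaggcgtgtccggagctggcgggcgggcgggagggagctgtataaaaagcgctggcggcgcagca
Pdgfra: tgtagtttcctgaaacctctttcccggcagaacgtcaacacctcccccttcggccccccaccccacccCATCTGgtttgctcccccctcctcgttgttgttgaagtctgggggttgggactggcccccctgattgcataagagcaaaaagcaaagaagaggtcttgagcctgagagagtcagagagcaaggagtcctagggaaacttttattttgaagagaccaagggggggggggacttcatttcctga
Only the Pdgfra window holds a CANNTG, the sequence CATCTG, whose first base lies 182 bases before the start site. The form CANNTG reads the same on both strands, although the sequence CATCTG itself does not. Of the 7 members with a window in the RefSeq table (Pdgfa, Pdgfc, Pdgfd, Kitl, Csf1, Pdgfra and Kit), the other 6 hold none, whereas 66.0% of 27025 windows of the same length over all genes hold at least 1. The special case CAGCTG, in 12.8% of all windows, and CAGGTG or its complement CACCTG, in 17.1%, occur in none of the 7. These matches describe the letters in these windows and are not evidence of binding or of its absence.

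Pdgfra encodes PDGF receptor alpha, which binds every PDGF chain except PDGF-D homodimers. Its level was 2.68 and 2.77 CPM in E12 WT, 24.3 and 19.6 in E12 KO, 15.5 and 13.8 in E47 WT, and 7.17 and 10.96 in E47 KO. No 2 genotypes overlapped. It rose by 3.02 on the log2 scale in E12 (SE 0.205, adjusted p = 1.8e-08) and fell by 0.71 in E47 (SE 0.167, adjusted p = 0.0023), a difference of 3.72 (SE 0.269, adjusted p = 3.2e-08). The E47 fall rested on the lower knockout library, since without E47 KO replicate 1 it was -0.40 (adjusted p = 0.067). Over all alternatives to the analysis the E47 value ran from -1.01 to -0.40. Of 10 adventitial fibroblast markers, 9 passed the filter. In E12 3 of them rose and 4 fell, and their sum was 193 to 212 CPM in E12 KO and 199 to 207 CPM in E12 WT. In E47 5 rose and 3 fell, and the sum was 468 to 526 CPM in E47 KO and 244 to 254 CPM in E47 WT, the reverse of the order of Pdgfra. Single markers ran both ways. From E12 WT to E12 KO, Lum went from 0.234 to 4.58 CPM and Mfap5 from 6.16 to 0.397 CPM. From E47 WT to E47 KO, Cd34 went from 93.3 to 18.1 CPM and Dcn from 2.05 to 94.6 CPM. The part of these markers in the Pdgfra result was not tested.

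Pdgfrb encodes PDGF receptor beta, the main PDGF receptor of smooth muscle cells and pericytes. It was by far the most abundant of the 4 receptor mRNAs, at 214 and 249 CPM in E12 WT, 425 and 430 in E12 KO, 615 and 659 in E47 WT, and 569 and 666 in E47 KO. It rose in E12 KO by 0.88 (SE 0.0874, adjusted p = 1.0e-06). In the E47 pair the groups overlapped and the change was -0.04 (SE 0.0856, adjusted p = 0.69). The difference between the changes was 0.93 (SE 0.122, adjusted p = 1.9e-05). E12 WT was lower than E47 WT by 1.46 (SE 0.0882, adjusted p = 1.9e-09), so that the rise in E12 KO left it still below both E47 genotypes. Pericyte markers followed this order in part. Rgs5 was at 14.3, 10.5, 268 and 218 CPM and Anpep at 1.47, 0.939, 2.98 and 2.64 CPM in E12 WT, E12 KO, E47 WT and E47 KO. Like Pdgfrb, both were higher in the E47 genotypes, as were Kcnj8 and Abcc9. Kcnj8 and Abcc9 were at 1.84 and 1.82 CPM in E47 WT and at 0.401 and 0.290 CPM in E47 KO. Cspg4 was at 441, 204, 341 and 286 CPM and Notch3 at 36.7, 12.5, 38.3 and 61.2 CPM in the same order. In E12 KO, where Pdgfrb rose, 3 of the 6 tested pericyte markers fell and none rose. In E47 KO, where Pdgfrb did not pass the test, 1 of these markers rose and 2 fell. Their part in the Pdgfrb result was not tested.

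The balance of the PDGF receptors shifted with Pdgfra. Per kilobase, Pdgfrb exceeded Pdgfra 146-fold and 165-fold in the E12 WT libraries and 32.1-fold and 40.2-fold in E12 KO. The ratio was 72.4 and 87.1 in E47 WT and 145 and 111 in E47 KO. The receptor beta mRNA thus outnumbered receptor alpha in every library, by the least in E12 KO.

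Csf1r encodes the receptor for CSF1 and interleukin 34 and was near the limit of detection. Its counts were 25 and 21 in E12 WT, 21 and 7 in E12 KO, 18 and 48 in E47 WT, and 11 and 8 in E47 KO, or 1.60 and 1.57, 1.01 and 0.421, 1.29 and 1.87, and 0.572 and 0.535 CPM. Every wild-type library was above every knockout library. Csf1r passed the filter on low counts only through the wild types, so this order and the tests of Csf1r are descriptions. A count of 0 would allow 0.109 to 0.216 CPM (3 counts in a library, counting error only). Csf1r fell by 1.08 in E12 (SE 0.396, adjusted p = 0.036) and by 1.55 in E47 (SE 0.406, adjusted p = 0.0046), with a difference of 0.47 (SE 0.585, adjusted p = 0.53). In E12 the value was -1.89 without E12 KO replicate 1, where the call held (adjusted p = 0.013), and -0.63 without E12 KO replicate 2, where it ended (adjusted p = 0.26). It also ended without E12 WT replicate 1 (-1.07, adjusted p = 0.10), E12 WT replicate 2 (-1.09, adjusted p = 0.074) or either E47 KO library (-1.07, adjusted p = 0.052 each). The E47 call ended without E47 WT replicate 2 (-1.20, adjusted p = 0.10). Of its exon length, 15.1% overlaps Hmgxb3 on the opposite strand, which was at 39.4 to 61.2 CPM in the genotypes. Without strand, reads from the shared stretch cannot be told apart, so the count is uncertain.

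Most macrophage markers were at or near 0. Of 15 markers 3 passed the filter (Cd68, Lyz2 and Cd14), and Itgam, Tyrobp and C1qa had no count in any library. For Itgam, 68.7% of the exon length overlaps another gene, so its count is uncertain. The list summed to 10.8 CPM in each E12 WT library, 12.1 to 12.5 in E12 KO, 13.8 to 15.3 in E47 WT and 11.1 to 11.3 in E47 KO. Lyz2, at 11.8 CPM in E47 WT, and Cd14, at 10.3 CPM in E12 KO and 1.27 CPM in E47 WT, made up most of these sums. Of the 3 that passed, 1 rose and 2 fell in E12 KO, and 1 rose and 1 fell in E47 KO. From E12 WT to E12 KO, Cd68 went from 2.89 to 1.36 CPM, Lyz2 from 0.873 to 0.151 and Cd14 from 6.80 to 10.3. In E47 KO, Lyz2 was at 1.75 CPM and Cd14 at 8.10 CPM. The part of these markers in the Csf1r result was not tested.

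**Figure D2:**
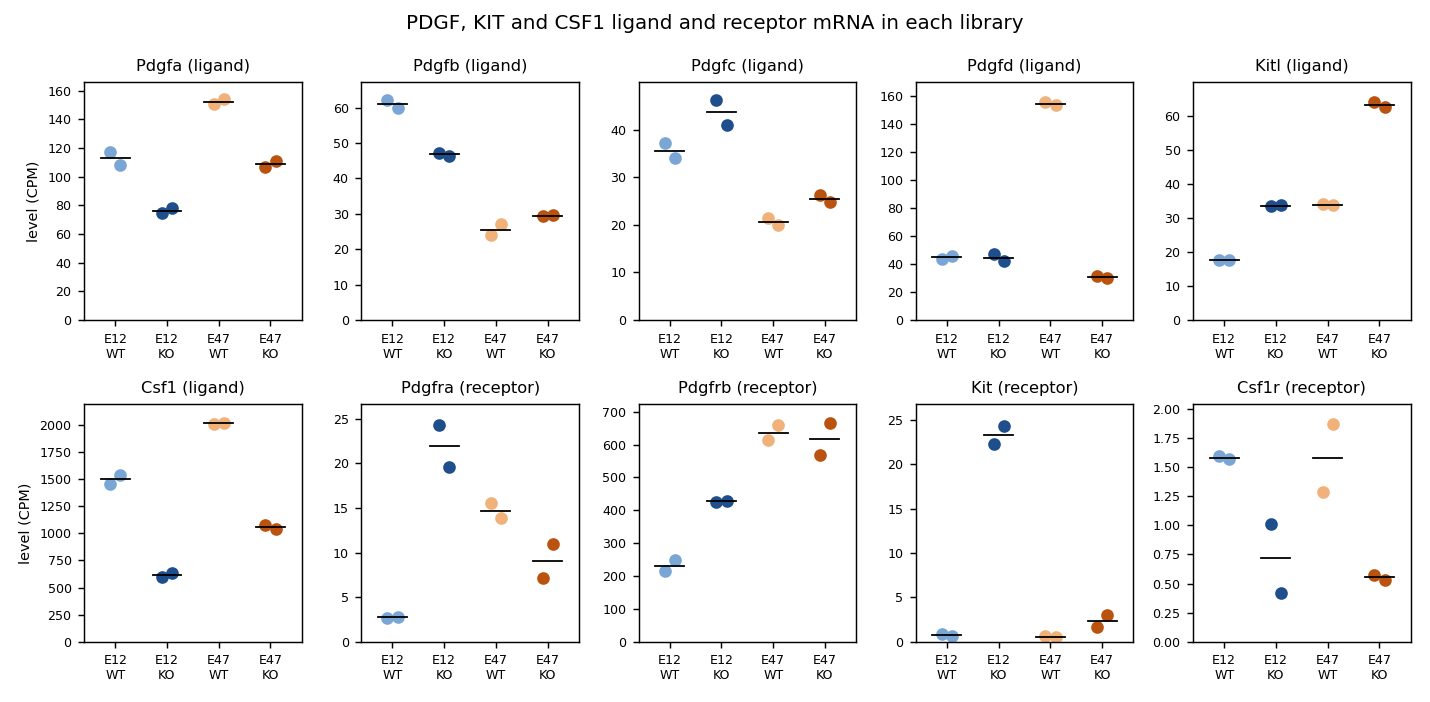
Level of each member in CPM (vertical axis, starting at 0, with its own scale in each panel) in the 2 libraries of each genotype, with a line at the mean. Kit is high in E12 KO, at 22.3 and 24.3 CPM, Pdgfd is high in E47 WT, at 155 and 153 CPM, and Csf1 is below the matching wild type in both knockouts.

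The PDGF ligands each had an order of their own. Pdgfa, whose product binds receptor alpha, was at 117 and 108 CPM in E12 WT, 74.8 and 77.9 in E12 KO, 151 and 154 in E47 WT, and 107 and 111 in E47 KO. It fell in both knockouts, by 0.57 (SE 0.0699, adjusted p = 1.0e-05) and by 0.49 (SE 0.0681, adjusted p = 2.6e-05), and the difference between these was -0.08 (SE 0.0974, adjusted p = 0.53). E12 WT and E47 KO, next to each other in the order, overlapped. An antisense gene, 6330403L08Rik, covers 26.1% of the Pdgfa exon length and was at 10.4, 6.79, 22.4 and 11.6 CPM in E12 WT, E12 KO, E47 WT and E47 KO. Its reads in the shared stretch cannot be told from those of Pdgfa.

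Pdgfb, whose product binds both receptors, was at 62.0 and 59.9 CPM in E12 WT, 47.3 and 46.3 in E12 KO, 23.9 and 27.1 in E47 WT, and 29.4 and 29.5 in E47 KO. It fell in E12 by 0.38 (SE 0.0749, adjusted p = 0.0007). In E47 it did not pass the test (0.20, SE 0.0827, adjusted p = 0.056), although both knockout libraries were above both wild-type libraries, and it passed without E47 WT replicate 2 (0.30, adjusted p = 0.036). The difference between the changes was -0.58 (SE 0.112, adjusted p = 0.00057). E12 WT exceeded E47 WT 2.37-fold (adjusted p = 3.4e-09). Endothelial cells are a known source of PDGF-B. E47 WT, the genotype in which most endothelial markers were high, had the lowest mean of Pdgfb. The part of such cells in the Pdgfb result was not tested.

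Pdgfc, whose product is secreted in a latent form and acts on receptor alpha after cleavage, was at 37.2 and 34.1 CPM in E12 WT, 46.3 and 41.1 in E12 KO, 21.4 and 19.9 in E47 WT, and 26.4 and 24.7 in E47 KO. The rises in the knockouts were 0.29 in E12 (SE 0.0863, adjusted p = 0.011) and 0.32 in E47 (SE 0.0943, adjusted p = 0.01), with a difference of -0.02 (SE 0.128, adjusted p = 0.90). Both calls depended on single libraries. In E12 the change was 0.21 (adjusted p = 0.12) without E12 KO replicate 1 and 0.23 (adjusted p = 0.077) without E12 WT replicate 2. In E47 it was 0.26 (adjusted p = 0.12) without E47 WT replicate 2 and 0.28 (adjusted p = 0.076) without E47 KO replicate 1.

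Pdgfd, whose product is also latent and acts on receptor beta, was the member that changed most in E47. It was at 43.6 and 45.6 CPM in E12 WT, 46.9 and 42.1 in E12 KO, 155 and 153 in E47 WT, and 31.3 and 29.7 in E47 KO. The E47 WT libraries stood alone at the top. It fell by 2.33 in E47 (SE 0.0778, adjusted p = 3.0e-12), which is 5.04-fold. In E12 the groups overlapped, with a log2 change of -0.0013 (SE 0.0788, adjusted p = 0.99). The difference was 2.33 (SE 0.110, adjusted p = 2.7e-10). E47 WT exceeded E12 WT 3.46-fold (adjusted p = 2.8e-11), whereas E47 KO was below E12 KO by 0.54 on the log2 scale (SE 0.0803, adjusted p = 4.6e-05). Pdgfd was thus high in E47 WT alone, as were most of the endothelial markers and several smooth muscle markers. Mylk was at 1.95, 4.30, 169 and 23.0 CPM and Cnn1 at 7.34, 2.31, 103.5 and 19.8 CPM in E12 WT, E12 KO, E47 WT and E47 KO. In E47 KO, Pdgfd was at 30.5 CPM and Pecam1 at 0.55 CPM. The part of either set of markers in the Pdgfd result was not tested.

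Summed per kilobase, the 4 PDGF ligands were at 73.7 and 70.3 CPM per kb in E12 WT, 59.3 and 57.5 in E12 KO, 108 and 108 in E47 WT, and 56.4 and 57.0 in E47 KO. Pdgfa made up 50.2% of the sum in E12 WT, 41.9% in E12 KO, 45.3% in E47 WT and 61.6% in E47 KO. Pdgfd held 19.7%, 24.1%, 45.3% and 17.1% and Pdgfb 20.4%, 19.3%, 5.67% and 12.5% in the same order. The E47 WT libraries therefore combined the largest sum with an almost equal split between Pdgfa and Pdgfd.

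**Figure D3:**
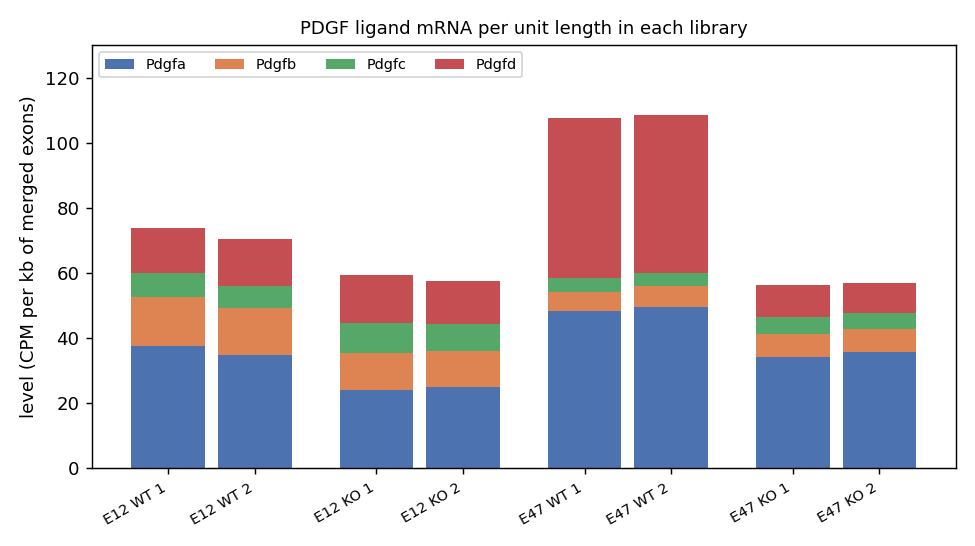
PDGF ligand mRNA in each library, as CPM per kilobase of merged exon length (vertical axis), stacked by gene. The E47 WT bars reach 108 CPM per kb, and Pdgfd makes up 45.3% of them on average.

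Kitl, which encodes stem cell factor, the KIT ligand, rose by nearly the same factor in both knockouts. It was at 17.7 and 17.8 CPM in E12 WT, 33.5 and 33.8 in E12 KO, 34.1 and 33.9 in E47 WT, and 64.3 and 62.6 in E47 KO. The change was 1.89-fold in E12 (log2 0.92, SE 0.0805, adjusted p = 2.7e-07) and 1.87-fold in E47 (log2 0.90, SE 0.0697, adjusted p = 4.9e-08). The difference between them was 0.02 (SE 0.106, adjusted p = 0.89). The E12 pair started lower by a similar factor, with E12 WT at 0.523 of E47 WT (adjusted p = 1.2e-07), so that E12 KO and E47 WT differed by 0.01 (SE 0.0724, adjusted p = 0.88). Per kilobase, Kitl exceeded Kit 32.2-fold and 44.8-fold in E12 WT, 79.7-fold and 101-fold in E47 WT, and 56.5-fold and 30.7-fold in E47 KO, but 2.27-fold and 2.09-fold in E12 KO. Kitl has 4 annotated coding transcripts, and counts per gene do not separate the form that stays on the membrane from the one that is shed.

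Csf1, the macrophage colony-stimulating factor, was the most abundant member per unit length in every genotype. It was at 1454 and 1541 CPM in E12 WT, 596 and 629 in E12 KO, 2010.2 and 2015 in E47 WT, and 1077 and 1039 in E47 KO. Per kilobase it was higher than 97.7% to 99.5% of tested genes in the 4 genotypes. It fell by 1.29 in E12 (SE 0.0665, adjusted p = 8.4e-10) and by 0.93 in E47 (SE 0.0658, adjusted p = 1.9e-08), and the fall in E12 was larger by 0.36 (SE 0.0925, adjusted p = 0.0046). All 4 genotypes stood apart without overlap, from E47 WT through E12 WT and E47 KO to E12 KO. Against Csf1r, Csf1 was between 643-fold and 2125-fold higher per kilobase in the 8 libraries, with 7 to 48 Csf1r counts behind each ratio.

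Between the wild types, 2 members were higher in E12 WT and 6 lower, where 55.4% of all genes passed the test, 27.8% higher and 27.6% lower. Pdgfb and Pdgfc were higher, and Pdgfa, Pdgfd, Kitl, Csf1, Pdgfra and Pdgfrb were lower. Pdgfra was 5.34-fold lower in E12 WT than in E47 WT (log2 -2.42, SE 0.217, adjusted p = 2.0e-07). Between the knockouts, 5 members were higher in E12 KO and 4 lower, against 52.9% of all genes, 25.9% higher and 27% lower, and Csf1r alone was not past the test. These comparisons use the same libraries as the knockout changes and add no independent libraries. The knockout changes themselves differed between the pairs for 6 of 10 members, against 48.6% of all genes. The change was higher in E12 for 4 of the 6 and lower for 2, where 22.9% and 25.7% of all genes were. The spread of levels over the genotypes was widest for Kit, 40.5-fold between the highest and the lowest mean, then Pdgfra at 8.05-fold and Pdgfd at 5.05-fold, and narrowest for Pdgfa at 2.00-fold.

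The positions of the receptor genes set some of these changes in a wider frame, chosen after the values were seen. Pdgfra (chromosome 5, 75152292 to 75198215 in GRCm38, plus strand) and Kit (75574916 to 75656722, plus strand) are neighbours 377 kb apart, followed after 276 kb by Kdr (75932827 to 75978458, minus strand), which encodes a VEGF receptor. Kdr was at 4.004, 3.32, 2.400 and 0.806 CPM in E12 WT, E12 KO, E47 WT and E47 KO. It did not pass the test in E12 (-0.29, SE 0.279, adjusted p = 0.42) and fell in E47 (-1.53, SE 0.388, adjusted p = 0.0038). Of the 5 tested coding genes other than members within 500 kb, Chic2 (0.38) and Srd5a3 (0.31) rose and Tmem165 (-0.18) and Clock (-0.36) fell in E12, all by far less than Kit or Pdgfra.

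Pdgfrb (chromosome 18, 61045150 to 61085061, plus strand) and Csf1r (61100598 to 61132149, plus strand) lie 15.5 kb apart and went in opposite directions in E12. Of 12 tested coding neighbours within 500 kb, 9 rose in E12 KO, among them Csnk1a1 (0.84), Dctn4 (0.90), Tcof1 (1.22) and Camk2a (1.29). The rise was not limited to the neighbours. Of 288 tested genes of chromosome 18 with a mean of at least 5 CPM, 231 (80.2%) were higher in E12 KO, and their median log2 change was 0.54. Along the chromosome, the median was between 0.50 and 0.65 in each of the 6 stretches of 15 Mb that hold at least 20 genes. No other chromosome had a median above 0.32 in that comparison, and the lowest was chromosome 9 at -0.35. Pdgfd lies on chromosome 9, and its E12 change of -0.0013 was above that median by 0.35. Pdgfrb, at 0.88, was above the chromosome 18 median by 0.34, and Csf1r below it by 1.62. In E47 the chromosome 18 median was 0.12. The part of the chromosome-wide rise in the Pdgfrb change was not tested. For Kit and Pdgfra the chromosome 5 medians were 0.08 in E12 and -0.08 in E47.

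**Figure D4:**
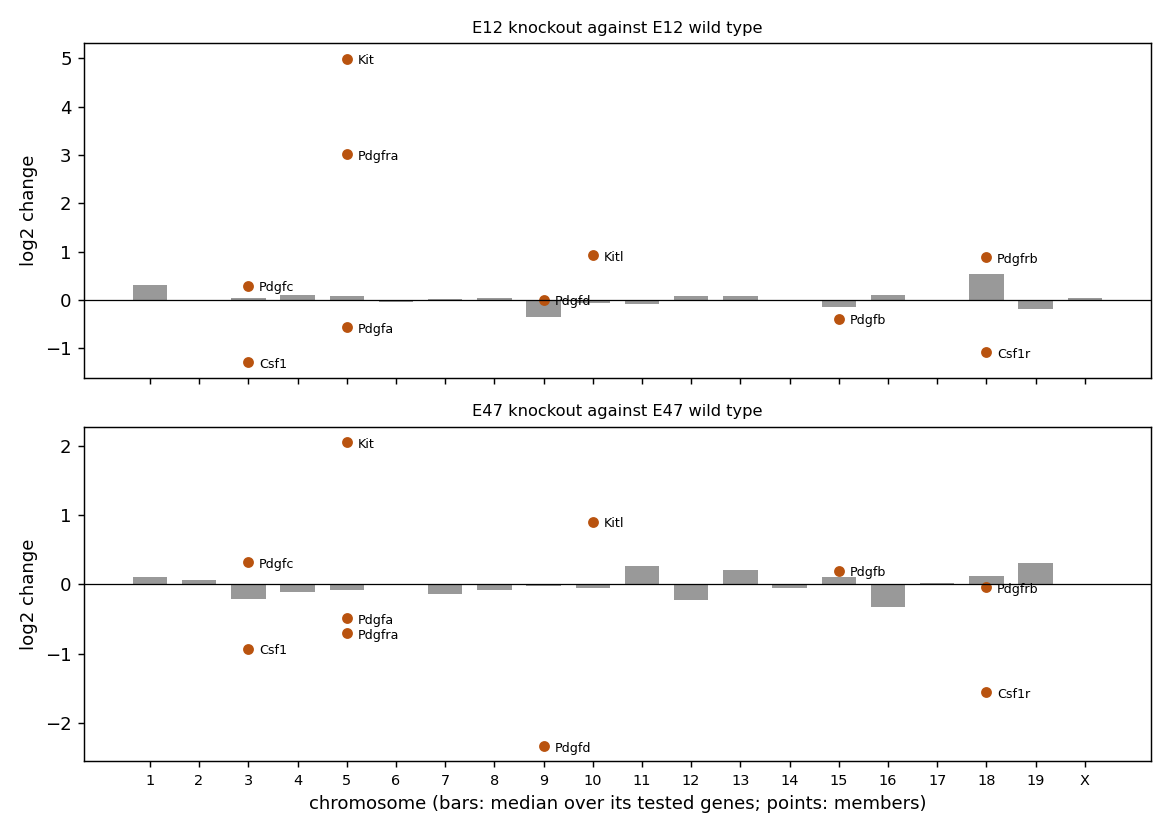
Median log2 change over the tested genes of each chromosome with a mean of at least 5 CPM (grey bars) and the log2 change of each member on its chromosome (points), for the E12 pair above and the E47 pair below, each panel with its own vertical scale. Chromosome 18, which carries Pdgfrb and Csf1r, has the highest median in E12 at 0.54, and Kit and Pdgfra lie far above the chromosome 5 median of 0.08.

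Genes that act with these ligands and receptors were taken from 5 lists with 101 genes, of which 94 were tested. Over all lists, 28 rose and 28 fell in E12 KO, and 10 rose and 40 fell in E47 KO, with median log2 changes of -0.02 and -0.09, beside medians of -0.01 and 0.01 over all tested genes. In E12, 21.9% of all genes rose and 24.5% fell, and in E47, 27.7% rose and 27.5% fell.

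Of 11 tested genes for ligand processing and sharing, 3 rose and 7 fell in E12, and 2 rose and 5 fell in E47. Plat, the tissue plasminogen activator that cleaves PDGF-C, rose in both knockouts, from 35.5 to 82.1 CPM in E12 (log2 1.21, adjusted p = 7.1e-09) and from 47.7 to 65.2 CPM in E47 (0.45, adjusted p = 0.00011). Plau, the urokinase that can cleave PDGF-D, rose in E12 (0.49, adjusted p = 5.3e-05). In the E47 pair it stood at 30.9 and 29.7 CPM (-0.06, adjusted p = 0.54). Of the proprotein convertases, which process PDGF chains, Furin fell by 0.24 in E12 and by 0.72 in E47, Pcsk6 by 2.12 and 2.46, and Pcsk5 by 1.89 and 3.18. Adam17, a sheddase of CSF1 and stem cell factor, was at 75.4 and 82.3 CPM in E12 (0.13, adjusted p = 0.21) and fell by 0.28 in E47. Mmp2, a gelatinase, rose by 1.74 in E12, and its E47 levels were 657 and 672 CPM (0.03, adjusted p = 0.72).

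Other ligands and receptors of the class were scarce or split. Flt3, the remaining class III receptor, had 1 count over all 8 libraries. Flt3l, its ligand, was at 1.11 to 1.65 CPM in the 4 genotypes. Il34, the second CSF1R ligand, had 2 counts in each E12 genotype and was at 1.503 CPM in E47 WT and 1.40 CPM in E47 KO. Of 14 tested genes in this list 3 rose and 6 fell in E12, and 2 rose and 7 fell in E47. Ptprz1, a phosphatase that can bind interleukin 34, fell by 3.33 in E12 and by 1.52 in E47. Nrp1, a neuropilin co-receptor, rose by 0.38 in E12 and fell by 1.04 in E47, and Nrp2 rose by 0.50 and fell by 1.60. Both had lower levels in E12 WT than in E47 WT. Flt4, a VEGF receptor gene, went from 4.34 to 0.145 CPM in E12 (-4.68, with 53 and 71 counts against 6 and 0) and was at 1.71 and 2.69 CPM in E47 (0.70, adjusted p = 0.092). Vegfa fell by 0.49 in E12 and rose by 0.17 in E47.

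In E47 more downstream genes fell than rose. Of 30 tested adaptors and enzymes that bind activated receptors, 9 rose and 5 fell in E12, and 3 rose and 13 fell in E47. Grb10, an adaptor that dampens receptor signalling, rose by 0.89 in E12 and fell by 1.72 in E47, and Rasa1, a RAS GTPase activator, rose by 0.83 and fell by 0.34. Pik3cb, a catalytic subunit of phosphoinositide 3-kinase, fell in both (-0.96 and -0.42). Shc1, an adaptor, was at 210.5 and 224 CPM in E12 (0.09, adjusted p = 0.26) and fell by 0.91 in E47, and Sh2b3, an adaptor that restrains KIT signalling, fell by 0.24 and 0.79. Of 19 tested genes of the RAS, MAP kinase and AKT relay, 6 rose and 6 fell in E12, and 7 fell in E47. Braf fell in both (-0.58 and -1.41), and Rps6ka3 rose by 0.61 in E12. Map2k1 fell by 0.45 in E12.

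Of 20 tested negative regulators, 7 rose and 4 fell in E12, and 3 rose and 8 fell in E47. Cblb, a ubiquitin ligase that removes activated receptors, rose in both (0.69 and 0.36), and Socs6, which binds KIT, rose by 0.79 in E12 (chromosome 18). Spry2, a feedback inhibitor of the MAP kinase pathway, fell in both (-0.68 and -0.51). Socs3 rose by 1.36 and Errfi1 by 0.92 in E47. Errfi1 fell by 0.20 in E12, and Socs3 was at 19.4 and 16.7 CPM there (-0.22, adjusted p = 0.075). Inpp5d, a phosphatase gene best known from blood cells, had 246 and 401 counts in E47 WT and between 0 and 2 in the other 6 libraries.

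The genes whose log2 levels ran most like each member's were found by Pearson's r over the 8 libraries among 11146 other genes (11147 for Csf1r). The libraries form 4 genotypes and share their scaling, so these values describe the pattern and carry no p. Nearest to Kit were Lmo4 (r = 0.994), Tgif1 (0.991) and Tmem119 (0.990). Tmem119 was at 9.03, 38.3, 7.96 and 12.3 CPM in E12 WT, E12 KO, E47 WT and E47 KO. Nearest to Pdgfra were Mb21d2 (0.991), Pcdhb17 (0.989) and Prkar2b (0.985), and nearest to Pdgfrb were the chemokine gene Cx3cl1 (0.994), Tcf4 (0.992), which encodes the E protein E2-2, and Clec2d (0.991). Tcf4 was at 19.1, 47.4, 98.7 and 84.5 CPM. Csf1 ran with Sema7a (0.997), Kitl with Serpinb9 (0.985), Pdgfd with Fam171a1 (0.996), Pdgfa with Hoxa6 (0.998), Pdgfb with Eml2 (0.996) and Pdgfc with Baiap2l1 (0.994). For Csf1r, with few counts, the highest r was 0.945 (Trpv2). The number of genes with an r of at least 0.95 ran from 0 for Csf1r, 29 for Kitl, 31 for Pdgfra and 49 for Pdgfrb to 110 for Kit and 262 for Pdgfa.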

How the data were processed

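Polyadenylated RNA was sequenced from 8 libraries of mouse vascular smooth muscle cells without keeping strand, per the labels' protocols. FastQC, HISAT, featureCounts and the build GRCm38 (mm10) are named in the submitters' processing notes. For their versions, settings and annotation, nothing is given in the sources used here. Deposited values are raw counts per gene symbol, 1 column per library. Positions, merged exon lengths and overlaps came from GENCODE M21 (GRCm38), start regions from RefSeq (GRCm38.p6), which held 7 of the 10 members.

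Counts were filtered with edgeR 4.0.16 in R 4.3.3 (filterByExpr, a minimum of 10 counts, here 0.631 CPM), scaled by TMM, edgeR's trimmed mean normalization, and fitted with a 4-group quasi-likelihood model, which left 4 residual degrees of freedom. Benjamini-Hochberg adjustment of p ran over all 13992 tested genes. The SE is the log2 change divided by the square root of F. Alternatives were DESeq2 1.42.0, its size factors in edgeR, no filter, the compared pair alone, and leaving out each library. Libraries of a genotype differed by more than sampling noise, those of E12 WT the most. The members and lists were chosen with earlier results of these data known. Every member was named, and from each pathway list the 3 called genes with the lowest p in each pair, plus Flt3, Flt3l, Il34, Kdr, Plat, Plau, Furin and Adam17. A few genes that this rule took are not reported here. Beside each member stand the 3 genes with the highest correlation of log2 CPM (mean CPM of at least 2, no predicted models), and the coding genes within 500 kb of the receptor genes. Chromosome medians, Tcf3 and the count of close genes were added after the data were seen.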

Additional observations from a re-analysis of the deposited data

Results flagged for a closer look

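For 6 members the change in the E12 knockout differed from that in the E47 knockout by the test of the difference itself (edgeR, E12 minus E47, on the log2 scale). The difference was 3.72 for Pdgfra (adjusted p = 3.2e-08), 2.95 for Kit (adjusted p = 0.00047), 2.33 for Pdgfd (adjusted p = 2.7e-10), 0.93 for Pdgfrb (adjusted p = 1.9e-05), -0.36 for Csf1 (adjusted p = 0.0046) and -0.58 for Pdgfb (adjusted p = 0.00057). Pdgfra is the only one of the 6 with called changes in opposite directions, and its call in E47 ended without E47 KO replicate 1 (-0.40, adjusted p = 0.067). Kit and Csf1 changed in the same direction in both knockouts and by different amounts. Pdgfd and Pdgfrb each passed the test in 1 pair, and for Pdgfd the wild type of that pair, E47 WT, is also the genotype with endothelial markers that sum to 682 and 751 CPM. For Pdgfrb, the median of the same difference over the genes of chromosome 18 was 0.42. For Pdgfb, the median over the genes of chromosome 15 was -0.29. The part of either chromosome-wide shift was not tested.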

How the results depend on the processing

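Across 12 alternative settings, the counts of members past the test stayed within 1.5 times those reported. Leaving out 1 library at a time gave 7 to 9 members in E12, 6 to 8 in E47, 6 in each case for the difference, 8 in each case for the wild types and 9 in each case for the knockouts. The number of all genes past the test ran from 5320 to 6409 in E12 and from 5867 to 8161 in E47 when 1 library was left out. Of 50 single values (10 members in 5 comparisons), 44 kept their direction, if called, and their side of the threshold in every alternative that was run. The other 6 were the knockout changes of Csf1r and Pdgfc in both pairs and those of Pdgfb and Pdgfra in E47, with the values given above. No called value changed direction. With DESeq2, Csf1r in E12 was -1.12 (adjusted p = 0.11), and with the E12 libraries fitted by themselves it was -1.08 (adjusted p = 0.052), both short of the threshold. The causes were not tested. Depth limits Csf1r, with 7 to 48 counts a library, and Kit in the wild types, with 8 to 13. No paired analysis was possible because the labels number the libraries 1 to 8 and tie none of them across genotypes.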
